A study of Oryza sativa with 4 samples.

Results

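In rice leaf RNA, 119 of 37858 gene IDs were low in a single library, the one control library whose label gives an incubation at 25 °C, and stood at like levels in the other 3 libraries. They were chosen by their CPM (the expected count per 1000000 counts of the library). An ID had to reach at least 10 CPM in control 2, heated 1 and heated 2, and at least 2.5 times its CPM in control 1. The highest of those 3 values also had to be under 2 times the lowest. The values of all 4 libraries thus chose the members, so their low level in control 1 is a description, and no test of that contrast bears on them.

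The series compared leaves of the progeny of heat-treated rice seed with leaves of control progeny, and all 4 libraries came from Nipponbare, the japonica cultivar behind the rice reference genome. By title there were 2 control and 2 heated libraries. Control 1 carries a treatment label of 25 °C, whereas control 2, heated 1 and heated 2 all carry 30 °C, so control 2 shares its title with control 1 and its label with the heated group. The labels do not settle whether the 30 °C of control 2 is an entry error, and if it is, 25 °C does not set control 1 apart from control 2. Since 1 library has the 25 °C label, that temperature and the library itself cannot be told apart. The labels do not say whether replicates came from separate plants.

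Heat during seed stages is known to alter germination and seedling growth in rice, and effects seen in the next generation are studied as a memory of the parents' environment. Such effects are usually read from leaves as changes in messenger RNA, which also follow leaf age, time of day and temperature. Rice locus IDs give the chromosome in the digits after Os, and the digits after g follow the order of genes along it. They were first handed out in steps of 100, and loci added to the annotation later took numbers between those steps.

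None of the 119 members was named in the reference table used here (0 matched), and the count table gives IDs without names. No function is therefore given to any member, no product family could be counted, and leaf markers were not analysed here. Only 4 IDs are printed, the 2 with the largest ratio to control 1 and the 2 with the most reads. The other members are given by counts, ranges, chromosome and place in ID order.

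Control 1 was the shallowest library with a total of 15444235 expected counts, and the deepest, heated 1, had 17298384. Control 1 stood apart in that its 10 most abundant IDs took 8.51% of its counts, where the others had 6.18% to 6.65%. Among the 11718 IDs that met the level and spread parts of the rule, called eligible IDs here, control 1 lay at a median of -0.12 on the log2(CPM + 0.5) scale relative to the mean of the other 3, and this shift fell to -0.0070 with TMM-scaled library sizes (a scaling by the typical gene). The members' median on the CPM scale was -1.83. With TMM-scaled sizes the rule found 104 IDs, all among the 119.

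The members were mostly at modest levels. Their median was 5.96 CPM in control 1, 25.8 in control 2, 23.2 in heated 1 and 23.2 in heated 2, against medians of 33.9, 36.3, 37.5 and 36.7 CPM for the eligible IDs. The low place of control 1 and the closeness of the other 3 are set by the rule. Summed over members, the level was 2446 CPM in control 1 and 9022, 8840 and 9559 CPM in control 2, heated 1 and heated 2. The members held 0.245% of the counts of control 1 and between 0.884% and 0.956% of those of the other libraries. In bulk leaf RNA, fewer cells of a type and less RNA per cell cannot be told apart.

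**Figure D1:**
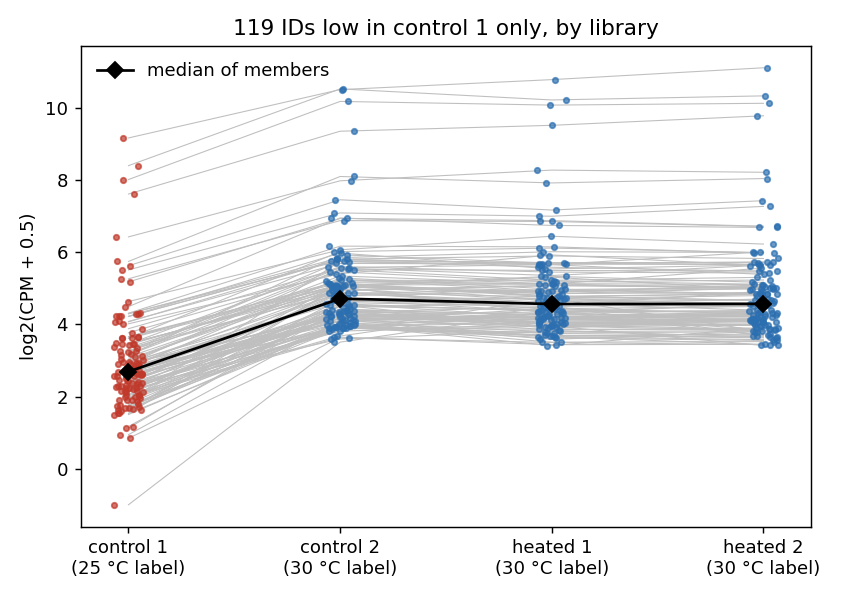
Level of each of the 119 members as log2(CPM + 0.5) in the 4 libraries, with 1 grey line per member and black diamonds for the median. The medians of 25.8, 23.2 and 23.2 CPM in control 2, heated 1 and heated 2 lie together, and that of control 1 is 5.96 CPM.

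The size of the gap varied among members. The smallest value of the other 3 libraries was a median of 3.40 times the control 1 value (quartiles 2.86 and 4.46). It was under 3 times in 42 members, at least 4 times in 43 and at least 8 times in 6, one of which was at 0 in control 1. The 3 members just inside the ratio threshold had ratios of 2.51 to 2.53, and the 3 IDs just outside it had 2.485 to 2.497, so the threshold cut a continuous range. At the level threshold the nearest members had 10.1 to 10.3 CPM and the nearest excluded IDs 9.876 to 9.997. The widest spreads kept were 1.803 to 1.928 times, and the narrowest excluded were 2.08 to 2.20 times.

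**Figure D2:**
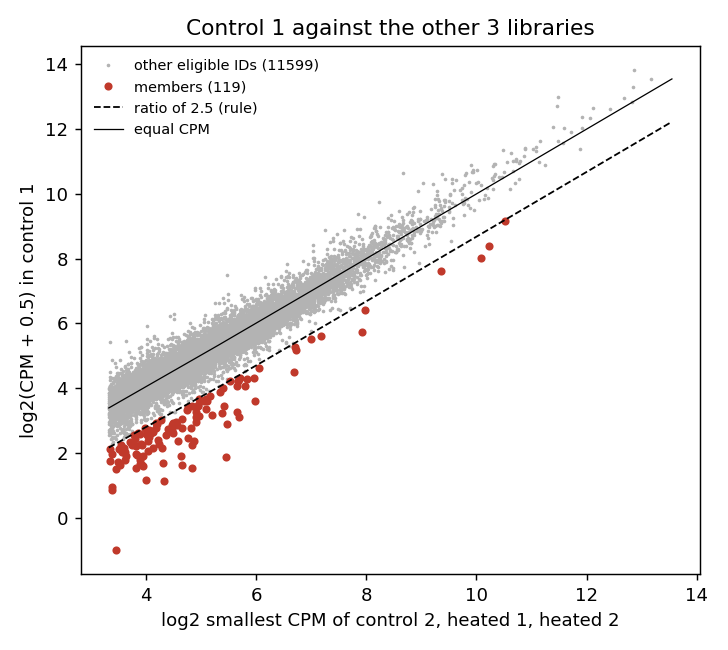
Each point is an eligible ID, with the smallest CPM of control 2, heated 1 and heated 2 on the horizontal log2 axis and log2(CPM + 0.5) of control 1 on the vertical axis. The 119 members (red) lie below the dashed line, which marks the ratio of 2.5 set by the rule.

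Os01g0858000, on chromosome 1, had no count in control 1, where a floor of 3 counts stands for 0.194 CPM. It had 10.9 CPM in control 2, 20.1 in heated 1 and 12.4 in heated 2. The lowest of these was at least 56.1-fold higher than control 1 taken at that per-library floor, which covers counting error only. Its counts of 187.48, 347.32 and 205.6 were fractional, so part of its reads also matched other IDs and its level is uncertain to that extent.

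Os05g0163250, on chromosome 5, had 3.17 CPM in control 1 (49 counts, exact 95% Poisson interval 2.35 to 4.19 CPM). It had 53.5 CPM in control 2, 47.5 in heated 1 and 44.0 in heated 2, a mean of 48.3 ± 4.82 CPM (SD, n = 3). The ratio of the smallest of these to control 1 was 13.9, the largest among members with a count in control 1. All 4 of its counts were whole.

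The reads of the group were concentrated in a few members. The 5 with the highest mean over the 3 libraries held 58.0% of the members' summed CPM there, and 11 members had a mean of at least 100 CPM, whereas 95 had a mean under 50 CPM. Os01g0910900, on chromosome 1, took the most reads, with 576 CPM in control 1, 1459 in control 2, 1768 in heated 1 and 2220 in heated 2. Its ratio of 2.53 put it close to the threshold, and control 2 was the lowest of the other 3. Os07g0683900, on chromosome 7, had 338 CPM in control 1, 1479 in control 2, 1196 in heated 1 and 1294 in heated 2. Here the smallest of the 3 was 3.54 times control 1, and control 2 was the highest.

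Several of the members with the most reads lay next to each other in ID order. Among IDs with at least 10 counts in total, 3 pairs of members were direct neighbours and 2 more pairs had a single ID between them. Of the 7 members with the highest mean CPM 6 were in these pairs, and those ranked 8 to 11 were in none. The cut at 7 was not set beforehand, and the share of other IDs with such neighbours is not given here. The direct neighbour before Os01g0910900 had 49.0 CPM in control 1, 175 in control 2, 144 in heated 1 and 172 in heated 2. The direct neighbour after Os07g0683900 had 85.6 CPM in control 1, 252 in control 2, 310 in heated 1 and 297 in heated 2. In both pairs control 1 was the lowest library for each ID, which the rule requires, while the order of the other 3 differed between the partners.

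A pair on chromosome 12 with 1 ID between its partners had 196, 656, 734 and 882 CPM in control 1, control 2, heated 1 and heated 2 for the first and 53.2, 274, 242 and 264 CPM for the second. A pair on chromosome 4 had 2.59, 33.2, 25.1 and 25.0 CPM for the first in the same library order and 19.2, 53.9, 52.1 and 51.9 CPM for the second. The counts of these 4 pairs were whole. The fifth pair, on chromosome 5, held identical fractional counts in every library (18.2, 55.4, 51.0 and 52.2 CPM), so it is 1 measurement divided between 2 IDs, and the members number 118 when it is counted once. Whether partners overlap in the genome was not tested, since no coordinates of the build used for counting were at hand.

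Neighbours that were not members did not share the low level. The IDs directly before a member, among IDs with a mean of at least 1 CPM, had a median of -0.013 on the log2(CPM + 0.5) scale in control 1 relative to the mean of the other 3 (n = 116), and those directly after it had -0.10 (n = 116). The median of all 20607 IDs at that level was -0.12. A value of -1 or less was found in 5.17% of the IDs directly before and 4.31% of those directly after a member, against 5.67% of all. These shares are not like for like. Neighbours that were themselves members, as in the pairs above, were left out, whereas the share of all IDs includes the members.

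**Figure D3:**
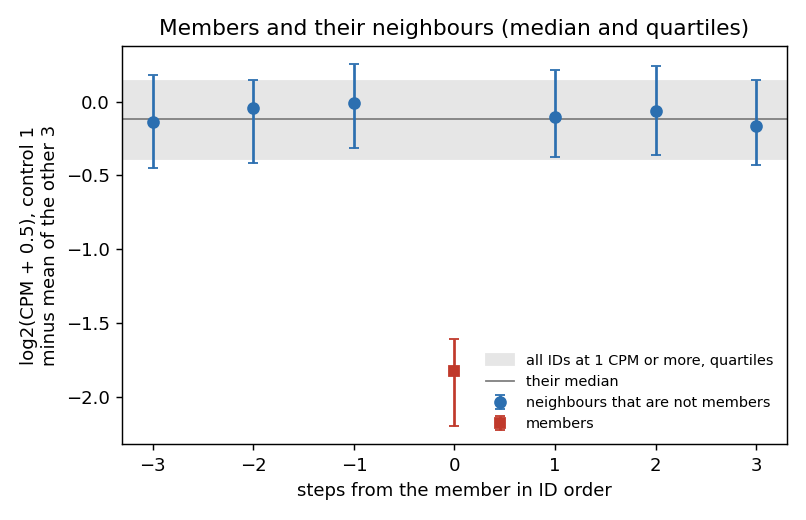
Median and quartiles of control 1 minus the mean of the other 3 libraries, in log2(CPM + 0.5), for the members (red, step 0) and for IDs up to 3 steps before and after them that are not members (blue). The neighbours' medians sit within the grey band of all IDs at 1 CPM or more, and the members' median is -1.83.

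Members were found on all 12 chromosomes. Chromosomes 1 and 5 held 15 each, chromosomes 2 and 3 held 13 each and chromosome 12 held 12. As a share of the eligible IDs of a chromosome, members ranged from 0.657% on chromosome 8 to 1.62% on chromosome 5 and 1.85% on chromosome 12. Chromosome 12 carried 10.1% of the members and 5.52% of the eligible IDs, and chromosome 5 carried 12.6% and 7.91%. These shares were not tested.

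A property of the IDs that the rule did not use was their numbering. Of the 119 members, 34 (28.6%) had numbers between the steps of 100, against 501 of the 11718 eligible IDs (4.28%). Seen from the other side, 6.79% of the eligible IDs between the steps were members, against 0.758% of those on a step. The difference was also there within the lower levels that hold most members: with a mean under 50 CPM in the 3 libraries, 33.7% of 95 members and 5.39% of 7313 eligible IDs had such numbers. Among IDs with whole counts throughout it was 25.3% of 83 members and 2.73% of 9209 eligible IDs. The lists were compared as shares only, with no test. Across the whole table, 7980 IDs (21.1%) had numbers between the steps, of which 501 were eligible. Such numbers were not particular to IDs low in control 1, as 10 of 14 IDs (71.4%) high in control 1 only had them. Those 14 had to reach 10 CPM in control 1 alone. They need not be eligible IDs, so their share and that of the eligible IDs are not like for like. Eligible IDs between the steps also varied more in control 1 relative to the mean of the other 3. Their log2 quartiles were -0.54 and 0.16, against -0.33 and 0.095 on a step.

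The medians of members on both kinds of number were near each other. The 34 between the steps had a median of 5.39 CPM in control 1 and 22.4, 22.2 and 20.3 CPM in control 2, heated 1 and heated 2, with a median ratio of 3.7. The 85 on a step had 6.35 CPM in control 1 and 29.0, 23.9 and 24.8 CPM in the others, with a median ratio of 3.3. For members between the steps, IDs directly before that were not members had a median of 0.038 in control 1 relative to the mean of the other 3 (n = 34, log2 scale). Those directly after had -0.14 (n = 33), so these neighbours were not low in control 1.

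Fractional expected counts, which arise when a read matches several IDs and is divided among them, were counted in members and eligible IDs, again with no test. A fractional count in at least 1 library was found for 36 members (30.3%) and for 21.4% of the eligible IDs. It was found in all 4 libraries for 28 members (23.5%) and for 12.9% of the eligible IDs. The other 83 members had whole counts in every library. Fractional counts went with the numbering, so the 2 properties are not separate. Between the steps, 38.2% of members and 49.9% of eligible IDs had a fractional count in at least 1 library. On a step it was 27.1% and 20.1%. A whole count does not show that an ID shared no reads, and the part of shared reads in the low level of control 1 was not tested.

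**Figure D4:**
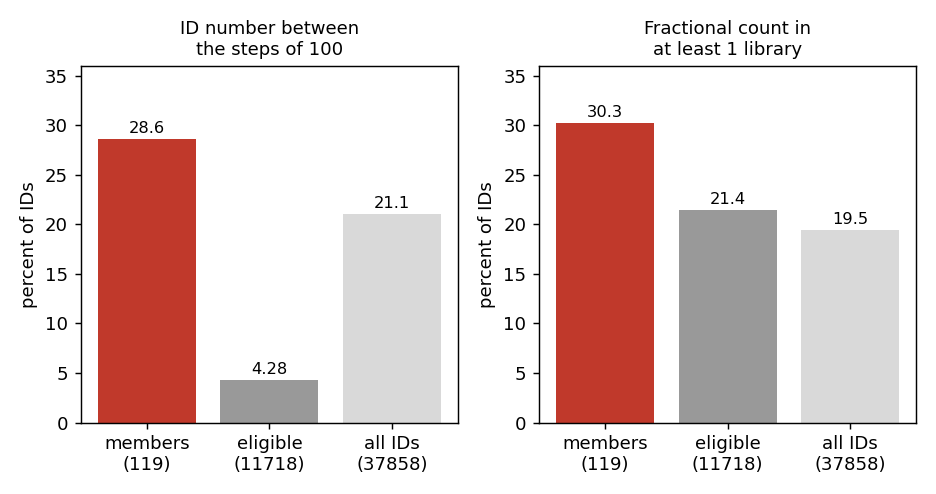
Percent of IDs with a number between the steps of 100 (left) and with a fractional count in at least 1 library (right) for the members, the eligible IDs and all IDs. The members stand at 28.6% and 30.3%, the eligible IDs at 4.28% and 21.4%.

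The first comparison set heated against control libraries, as the titles group them. None of the 119 members was called (0 of 119, quasi-likelihood test of edgeR at a false discovery rate of 0.05 after Benjamini and Hochberg), against 0.699% of all 22184 IDs tested. Without adjustment, 0 members had a p under 0.05, against 9.23% of all. The DESeq2 Wald test also called 0 members, against 2.35% of its 23456 IDs, and gave 3 members (2.52%) an unadjusted p under 0.05, against 7.46% of all. The smallest adjusted p among the members was 0.573 in edgeR. All 119 fitted log2 fold changes were above 0, with a median of 0.50 against 0.0061 for all IDs, but the rule places control 1 under every other library and so largely sets this sign. It also sets the members' controls far apart, and that gap enters the spread of the test.

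In this comparison Os01g0910900 had a log2 fold change of 0.92 (SE 0.40, edgeR adjusted p = 0.573) and Os07g0683900 one of 0.41 (SE 0.58, edgeR adjusted p = 0.881). Os05g0163250 had 0.65 (SE 0.95, edgeR adjusted p = 0.886). Os01g0858000 had a fitted value of 1.53 (SE 1.21, edgeR adjusted p = 0.778), which depends on the fit because of its count of 0. Both controls were below both heated libraries in Os01g0910900 and Os01g0858000, whereas control 2 was above both heated libraries in the other two. None of the 4 differences passed the threshold with all libraries, and each rested on which control was kept. Without control 1 the log2 fold change was 0.42 for Os01g0910900, 0.55 for Os01g0858000, -0.26 for Os05g0163250 and -0.28 for Os07g0683900. Without control 2, which leaves the contrast of the rule, it was 1.66, 11.0, 3.71 and 1.75 in the same order, with edgeR adjusted p of 0.00209, 0.000337, 6.33e-05 and 0.000714. The value of 11.0 depends on the fit because control 1 is at 0.

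The second comparison left control 1 out and set control 2 against the heated libraries, which the rule holds within 2-fold of each other. Control 2 was above both heated libraries in 76 members (63.9%), against 29.8% of the eligible IDs. It was below both in 25 members (21.0%), against 40.5% of the eligible IDs, and between them in 18. The median log2 difference of control 2 from the heated mean was 0.11 (quartiles -0.044 and 0.26), and that of the eligible IDs was -0.030. With TMM-scaled sizes control 2 was above both in 65.5% of members and 34.2% of eligible IDs. In 76 of the 119 members the order was thus control 1 lowest, which the rule sets, then the heated libraries and then control 2. The last step was mostly small. It compares 1 control library with the heated pair, and the members are not replicates of that library.

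**Figure D5:**
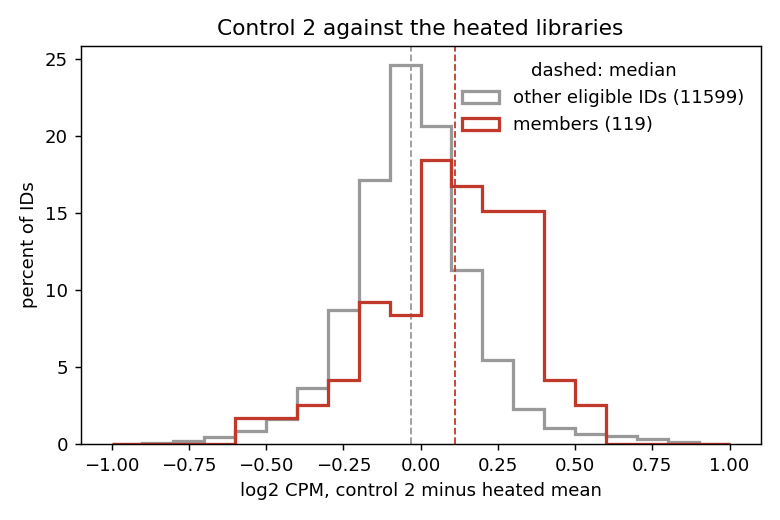
Distribution of the log2 difference in CPM between control 2 and the mean of the heated libraries, in percent of IDs per bin of 0.1, for the members (red) and the other eligible IDs (grey), with dashed medians. The median of the members is 0.11, and the rule keeps every value within 1 of 0.

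No single member passed the test in that comparison (0 of 119 called by edgeR's quasi-likelihood test, against 2.18% of 23140 IDs). The smallest adjusted p was 0.157. An unadjusted p under 0.05 was found for 20 members (16.8%), against 10.3% of all IDs, and all 20 were lower in heated leaves than in control 2, where the share of all IDs was 4.91%. The DESeq2 Wald test called 0 members, against 1.82% of its 22027 IDs, and gave 2 members (1.68%) an unadjusted p under 0.05, 1 in each direction, against 5.08% of all. With 1 control library the spread came from the heated pair alone. The rule bounds the members' differences in this comparison, whereas the IDs tested carry no such bound. The members' shares and those of all IDs are therefore not like for like, and a low number of calls is partly set by the rule. The largest difference in either direction was 0.60 above and 0.58 below the heated mean on the log2 scale.

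The 4 printed IDs split in direction here. Os01g0910900 was higher in heated leaves by 0.42 (SE 0.19, log2, edgeR adjusted p = 0.498) and Os01g0858000 by 0.55 (SE 0.27, edgeR adjusted p = 0.590). Os05g0163250 had -0.26 (SE 0.13, edgeR adjusted p = 0.602) and Os07g0683900 had -0.28 (SE 0.15, edgeR adjusted p = 0.639). Again no difference among these passed the threshold.

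The heated libraries were close to each other in the members. Their absolute log2 difference had a median of 0.090, against 0.11 in the eligible IDs. Heated 1 was above heated 2 in 67 of the 119 members (56.3%), near the 52.4% of the eligible IDs. The spread part of the rule bounds these differences in both sets. The largest of the other 3 values was a median of 1.21 times the smallest in members and 1.15 times in eligible IDs.

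The treatment labels would set control 1 against the other 3 libraries. That is the contrast that chose the members, so calls there follow from the choice and test nothing about them. The number of IDs called over the whole table also rose or fell with the library left out. A change in the members' count between these settings is therefore not particular to the members. For the record, 89 of the 119 were called by edgeR's quasi-likelihood test, where 0.580% of 23285 IDs were called higher in the other 3 libraries, and all 119 by the DESeq2 Wald test, where 3.42% of 21186 IDs were. Even so the edgeR count rested on single libraries, with 119 without control 2, 9 without heated 1 and 0 without heated 2. In that last setting 0 IDs of the whole table were called and all 119 members had an unadjusted p under 0.05, against 16.0% of all IDs.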

How the data were processed

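The authors deposited expected counts per gene ID, which per the file headers are gene-level output of RSEM, with no normalization and 0 columns of other samples. Per the submitters' processing notes, FastQC 0.11.7, Trimmomatic, Bowtie2, RSEM, edgeR 3.26.3 and the build IRGSP-1.0 were used. For the annotation, the settings and the use of strand, not given in the sources used here, nothing is assumed, and antisense and overlapping genes cannot be told apart. Libraries were grouped by title. CPM for the rule used column totals. Expected counts were rounded and tested by edgeR's quasi-likelihood method (edgeR 4.0.16 under R 4.3.3, TMM, filterByExpr with minimum count 10 and total 15), fitted on the whole table and adjusted by Benjamini-Hochberg over it. DESeq2 1.42.0, other scalings and filters, a replicate block and leaving out libraries were alternatives. A count within 0.005 of an integer was taken as whole. Os IDs were matched to the table of assembly ASM3414082v1, which held 1 of 37858. The rule for printed IDs took the largest ratios and highest means, and its product families, leaf markers and sequences needed names. The members and lists were chosen with earlier results of these data known. P-values measure the spread between these libraries, and intervals and floors cover counting error only.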

Additional observations from a re-analysis of the deposited data

How the results depend on the processing

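The number of members follows the thresholds of the rule. It was 203 with a ratio of at least 2 and 77 with at least 3, and 191 with a smallest CPM of at least 5 and 64 with at least 20. A spread under 1.5, TMM-scaled sizes, whole counts and identical rows taken once gave 111, 104, 83 and 118. Leaving 1 of the other 3 libraries out of the rule gave 142 to 200, the highest without control 2. For heated against control, 0 members were called under every alternative except without control 2, and leaving out a library gave 0 to 119. That setting compares control 1 with the heated libraries, close to the contrast of the rule, and more IDs of the whole table were called in it too. With a replicate block 0 members were called, but 70 had an unadjusted p under 0.05 (2162 of all 22184 IDs did), against 0 members without it. The members' median log2 fold change was then 0.78 instead of 0.50, and that of Os01g0858000, Os05g0163250 and Os07g0683900 was 2.384, 1.499 and 0.742. For Os01g0910900 it was 1.04 with the block, against 0.92 without it. The labels do not say what equal numbers share, and the differences between replicates correlated across IDs at -0.015 between the groups. Without control 1, the fold change of heated against control turned to -0.26 for Os05g0163250 and -0.28 for Os07g0683900, and without control 2 it was 3.71 and 1.75. For control 2 against heated, 0 members were called under each alternative run. For control 1 against the rest, the number of members called depended on the library left out, and so did the calls over the whole table. The members' median log2 fold change there was 1.75 to 1.81 under all alternatives. Control 2 stood above both heated libraries in 76 members, and in 78 with TMM-scaled sizes. That setting was added after seeing the data, as were the limits on level and whole counts for the numbering. Control 2 stood above the single heated library left in 86 members without heated 1 and in 84 without heated 2. Under that looser condition the count cannot fall below 76, and the share of eligible IDs meeting it is not given here. For all of these the cause was not tested.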

Other observations

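With the rule turned round, 14 IDs had at least 10 CPM in control 1 and at least 2.5 times the largest value of the other 3 libraries, with those 3 within 2-fold. Of these 14, 10 (71.4%) had numbers between the steps of 100 and 13 (92.9%) had a fractional count in at least 1 library. Among the 119 members it was 34 (28.6%) and 36 (30.3%), among the eligible IDs 4.28% and 21.4%, and among all IDs 21.1% and 19.5%. The 14 needed no set level in the other 3 libraries, unlike the members and the eligible IDs, so these shares are not like for like. The difference between these lists was not tested.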
